A study of Arabidopsis thaliana with 12 samples.

Results

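This group of Arabidopsis thaliana leaf transcripts was raised in the ssi2 mutant and in ssi2 sid2 plants and lay near or below the wild type level in ssi2 act1 plants. Its members were chosen from genotype means of log2(signal + 16), each minus the wild type mean. The difference had to be at least 2 in ssi2, at least 1.5 in ssi2 sid2 and at most 0.5 in ssi2 act1, with an ssi2 mean of at least 8. Of 13513 probe sets that name a single gene, 55 met the rule, each for a different gene. A further 7 met the same thresholds and were left out by name: WRKY53, HYH, UGT87A2, AT5G39670, AT1G06000, AT5G42760 and AT3G44450. The rule used the mean of every genotype, so all differences between genotypes given for the members are descriptions of how they were chosen. SAL2, proposed as a marker of the pattern, was a member. AT1G76960, the other proposed marker, was not, because its ssi2 act1 difference of 0.61 passed the limit of 0.5.

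The 12 arrays held leaf RNA of plants labelled as 4 weeks old, grown at 22 degrees with a photoperiod of 14 h, with 3 biological replicates of each of 4 genotypes. The genotypes were ssi2 act1, ssi2 sid2, ssi2 and wild type Col-0, and the labels give Col-0 as the genetic background of them all and name no alleles. Both double mutants carry the ssi2 mutation too, and the comparisons share arrays. No label says how many independent lines stand for a genotype or gives a scan date. They do not state whether replicates were grown apart, so any p-value measures the spread between these samples.

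SSI2 is a plastid stearoyl carrier-protein desaturase that makes oleic acid, and leaves of ssi2 mutants are known for low oleic acid, high salicylic acid and defence responses without a pathogen. ACT1 is a plastid acyltransferase that consumes oleic acid, and its loss is known to raise oleic acid again in ssi2. SID2 is the isochorismate synthase of salicylic acid synthesis, and its loss is known to lower salicylic acid in ssi2 without restoring oleic acid. These statements are background, and neither metabolite was measured here. Transcripts of SSI2, ACT1 and SID2 themselves are not analysed here, as no probe set is named for them, and the genotype labels were therefore not checked.

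The signals were on a linear scale, and array medians lay between 95.8 and 158. In all gene lists, measured means that a single-gene probe set was found by locus or by words in gene names. Other genes of a family can therefore be missing from a list. Of 27 leaf photosynthesis genes measured, most of them plastid-encoded, the 26 that were no members had median signals from 345.8 to 23057. Their summed signal lay between 194596 and 266774 in ssi2 act1, 219720 and 224050 in ssi2 sid2, 178191 and 226851 in ssi2, and 247076 and 318860 in wild type. Of 14 listed markers of other cells and organs 3 were measured, and their summed signal was 1959 to 3167 in ssi2 act1, 1388 to 3591 in ssi2 sid2, 969 to 2201 in ssi2 and 453.2 to 1149 in wild type. Most of that sum was AT1G22690, and FMA, a gene of the stomatal lineage, had a median of 231.4. PYK10, a glucosidase gene known from roots, had 53.8, 43.7 and 39.1 in ssi2 act1, 37.6, 42.5 and 22.7 in ssi2 sid2, 308, 214 and 37.2 in ssi2, against 21.5, 27.2 and 38 in wild type, and it was called higher in ssi2 than in wild type (1.84, adjusted p = 0.0448). No defining marker among the 3 was at 0, and their part in the results was not tested. In whole leaves, fewer cells of a type and less RNA per cell cannot be told apart. Among arrays of a genotype, pairs that held ssi2 replicate 3 or wild type replicate 2 had correlations of 0.914 to 0.949 across probe sets, which are not independent, against 0.969 for the remaining ssi2 pair and 0.979 for the remaining wild type pair. The ssi2 act1 pair of replicates 1 and 2 was at 0.942, inside that range. Results without ssi2 replicate 3 or wild type replicate 2 are given for the counts and for members that they move.

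In ssi2 act1 the members had a median log2 difference from wild type of 0.038 (from -1.81 to 0.49). In ssi2 sid2 the median was 2.38 (1.5 to 4.77), and in ssi2 it was 3.37 (2.05 to 5.35). Over all 22746 probe sets the 3 medians were 0.030, 0.011 and 0.078. All 6 arrays of ssi2 sid2 and ssi2 lay above all 6 arrays of ssi2 act1 and wild type in 35 of the 55 members, and in 2.27% of all probe sets. In limma's fit over all probe sets, with Benjamini-Hochberg adjustment and an adjusted p under 0.05 called, 46 members were higher in ssi2 than in wild type, where 5.77% of all probe sets were. Of the members, 36 were higher in ssi2 sid2 than in wild type (3.62% of all probe sets), and 0 differed between ssi2 act1 and wild type (0.664% of all higher and 1.13% lower). At an unadjusted p under 0.05, limma gave 1 member in that last comparison, and 12.8% of all probe sets. Between ssi2 act1 and ssi2, 46 members were lower (5.2% of all), and between ssi2 act1 and ssi2 sid2, 37 were lower (3.96% of all). The rule fixed the directions, and 0 members were called the other way, while over all probe sets 4.34% were lower in ssi2 and 2.79% lower in ssi2 sid2 than in wild type, and 3.17% were higher in ssi2 act1 than in ssi2 and 2.44% higher than in ssi2 sid2. Since the rule used these means, nothing is read from these counts. The count for ssi2 sid2 against wild type was 17 without ssi2 sid2 replicate 1, 18 without its replicate 3, 22 without wild type replicate 1 and 19 without wild type replicate 3. That for ssi2 act1 against ssi2 sid2 was 18 and 17 without ssi2 sid2 replicates 1 and 3. Without both ssi2 replicate 3 and wild type replicate 2, the counts were 54 for ssi2 against wild type, 50 for ssi2 sid2 against wild type and 55 for ssi2 act1 against ssi2.

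**Figure D1:**
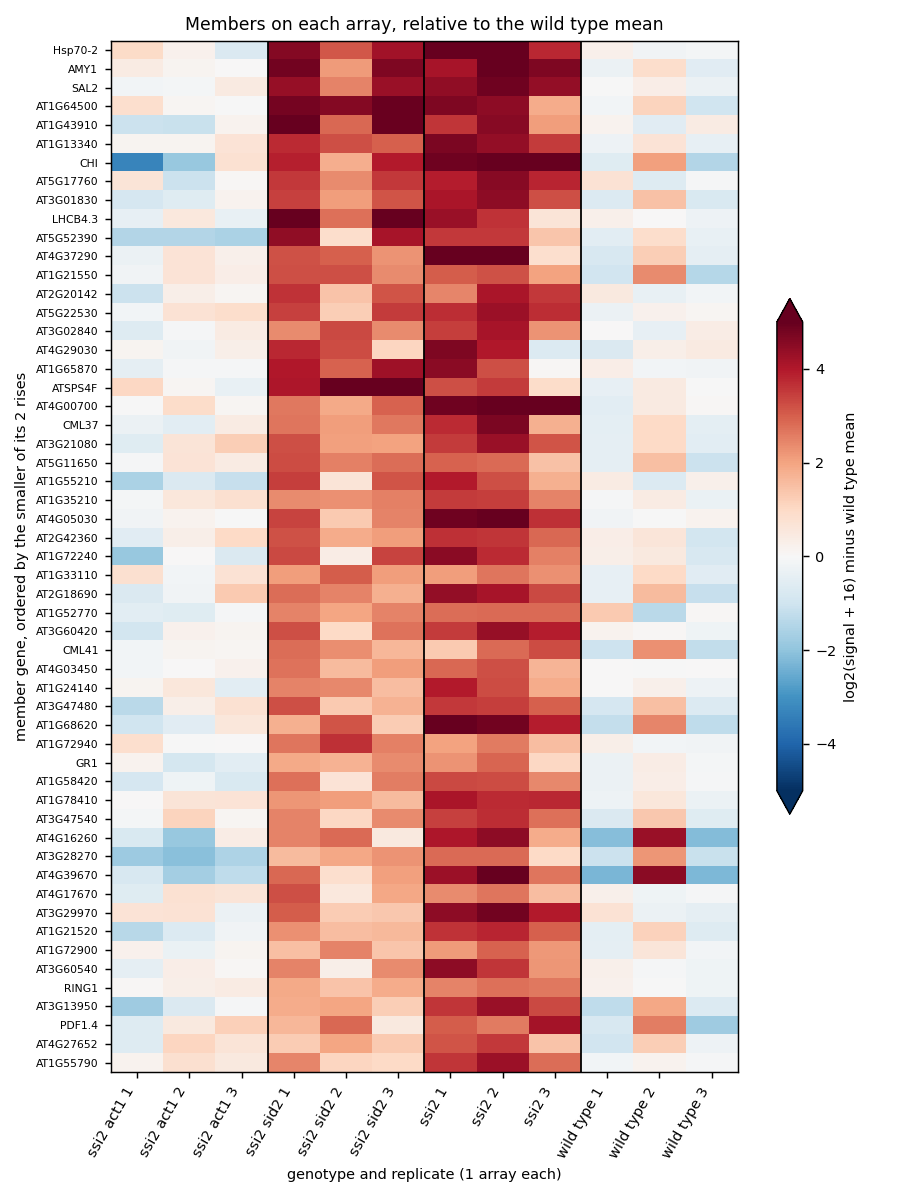
Log2(signal + 16) minus the wild type mean for the 55 members (rows, ordered by the smaller of their rises in ssi2 sid2 and ssi2) on the 12 arrays (columns). Red cells mark higher values and blue cells lower ones, and colours saturate beyond 5. The ssi2 sid2 and ssi2 columns are mostly red, ssi2 replicate 3 is the palest ssi2 array in 42 members, and wild type replicate 2 is red in members such as AT4G16260 and AT4G39670.

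SAL2 encodes a phosphatase of the SAL family, whose best known member SAL1 degrades phosphoadenosine phosphate, a by-product of sulfation that also acts as a stress signal. Its signals were 33.9, 35.7 and 58.5 in ssi2 act1, 1107, 290.3 and 1096 in ssi2 sid2, 1165, 1581 and 1139 in ssi2, against 38.2, 52.7 and 28.9 in wild type. Every ssi2 sid2 and ssi2 array was above every ssi2 act1 and wild type array, and ssi2 sid2 replicate 2 was the lowest of the raised arrays. On the log2 scale the differences from wild type were 0.07 in ssi2 act1, 3.72 in ssi2 sid2 and 4.56 in ssi2 (SE 0.441 each, n = 3 arrays per genotype). The list of 6 SAL loci held 4 other measured genes. HL, annotated as HAL2-like, had differences from wild type of -0.29, 1.29 and 0.68 in the same order, and none was called (adjusted p = 0.88, 0.0891 and 0.357). AT5G63990, whose locus number is next to that of SAL2, had -1.53, -0.38 and 0.61, with an adjusted p of 0.425 for ssi2. AT5G09290 had 0.94 in ssi2 act1 and 0.80 in ssi2 sid2 (adjusted p = 0.368 and 0.322) and rose in ssi2 by 2.75 (adjusted p = 0.00158). Its ssi2 act1 and ssi2 sid2 arrays all lay above its wild type arrays. AT4G05090 had -0.05, 0.71 and -0.65 in ssi2 act1, ssi2 sid2 and ssi2, with no call. Of the 5 measured SAL loci 2 were called higher in ssi2 (5.77% of all probe sets) and 1, SAL2, in ssi2 sid2 (3.62% of all), and the median differences were -0.045 in ssi2 act1, 0.80 in ssi2 sid2 and 0.68 in ssi2. In ssi2 act1 against ssi2, 3 were called lower (5.2% of all). They were SAL2, AT5G63990 at -2.14 (adjusted p = 0.00819) and AT5G09290 at -1.81 (adjusted p = 0.0208). In ssi2 act1 against ssi2 sid2, 2 were lower (3.96% of all), SAL2 and HL at -1.58 (adjusted p = 0.0427). In ssi2 sid2 against ssi2, 1 was lower (1.71% of all), AT5G09290 at -1.94 (adjusted p = 0.0281). Whether probes for one of these related genes also bind transcripts of another was not tested.

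Among the 11 members with a symbol, CHI, PDF1.4 and RING1 have names tied to defence or cell death. CHI, annotated as a putative chitinase of the kind that degrades fungal cell wall chitin, had signals of 12, 57.7 and 457 in ssi2 act1, 4037, 949 and 4355 in ssi2 sid2, 8122, 9265 and 8646 in ssi2, against 166, 1129 and 85.3 in wild type. The ssi2 arrays were the highest and close to each other, and wild type replicate 2 lay above the lowest ssi2 sid2 array. Its differences from wild type were -1.48 in ssi2 act1, 3.22 in ssi2 sid2 and 4.97 in ssi2 (SE 1.03), and without wild type replicate 2 the ssi2 act1 difference was -0.45. The ssi2 sid2 difference was not called in the fit with all arrays (adjusted p = 0.0907). PDF1.4 encodes a plant defensin, a small cysteine-rich antimicrobial peptide. It had 87.3, 213 and 359 in ssi2 act1, 494, 1164 and 216 in ssi2 sid2, 1324, 966 and 2884 in ssi2, against 77.4, 951 and 32.2 in wild type. Wild type replicate 2 lay among the ssi2 sid2 arrays and just below the lowest ssi2 array, and ssi2 act1 replicate 3 was above the lowest ssi2 sid2 array. The differences from wild type were 0.34, 1.67 and 3.26 in ssi2 act1, ssi2 sid2 and ssi2 (SE 0.971), and the last 2 were not called. RING1 encodes a RING-finger ubiquitin ligase known from programmed cell death. Its signals of 1516, 1799 and 1962 in ssi2 act1, 5546, 3928 and 5319 in ssi2 sid2, 8364, 9938 and 9279 in ssi2, against 1720.3, 1441 and 1274 in wild type were high in every genotype and tight within each. The arrays fell into separate levels, with ssi2 highest, ssi2 sid2 next and ssi2 act1 overlapping wild type, and the log2 differences from wild type were 0.25, 1.72 and 2.63 in ssi2 act1, ssi2 sid2 and ssi2 (SE 0.229).

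Calcium sensors with EF-hands bind calcium ions released during stress and wounding and pass the signal on to target proteins. CML37, known from wounding responses, had 4.61, 1.59 and 17.6 in ssi2 act1, 146, 93.5 and 145 in ssi2 sid2, 326, 645 and 70.4 in ssi2, against 1.96, 34.7 and 2.25 in wild type. All ssi2 sid2 and ssi2 arrays lay above the others, but several ssi2 act1 and wild type signals were under 16, where the pseudocount weighs on the result. With a pseudocount of 1 in place of 16, the ssi2 sid2 difference of 2.48 became 4.18 and the ssi2 difference of 3.40 became 5.14. With a pseudocount of 64 they were 1.33 and 2.14, and the first of these is under the rule's limit of 1.5. CML41, linked to closure of the channels between cells in immunity, had 227, 275 and 269 in ssi2 act1, 1829, 1308 and 815 in ssi2 sid2, 644, 1896 and 2562 in ssi2, against 114, 1260.2 and 96.4 in wild type. Wild type replicate 2 stood at the level of the raised arrays, and neither the ssi2 sid2 nor the ssi2 difference (2.26 and 2.48) was called in the fit. Without that array ssi2 act1 was 1.17 above wild type, past the limit of the rule. The calcium sensor list was matched by words in gene names, so it can miss sensor genes and hold related genes that are none. Among the 9 genes it matched, 2 were called higher in ssi2 (5.77% of all probe sets), CML37 and CML38 (1.81, adjusted p = 0.0225), and 1, CML37, in ssi2 sid2 (3.62% of all). CML38 had 0.89 in ssi2 sid2 (adjusted p = 0.294), and the median over the 9 was -0.10 in ssi2 act1, 0.20 in ssi2 sid2 and 0.92 in ssi2. At an unadjusted p under 0.05, limma gave 7 of the 9 in ssi2 against wild type, of either sign, and 23.8% of all probe sets. The members CML37 and CML41 are among these 7. In ssi2 sid2 it gave 3, and 20% of all probe sets.

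Hsp70-2 encodes a cytosolic chaperone of the heat shock protein family that binds unfolded proteins. Of all members it had the largest value for the smaller of its rises in ssi2 sid2 and ssi2. Signals were 80.7, 42.1 and 14.2 in ssi2 act1, 1179, 411 and 900.2 in ssi2 sid2, 2880.0, 1777 and 663 in ssi2, against 43.9, 28.5 and 30.5 in wild type. The raised arrays were all far above the rest, and its differences from wild type were 0.15 in ssi2 act1, 3.96 in ssi2 sid2 and 4.93 in ssi2 (SE 0.56). It was the only gene that the heat shock list matched by name, so nothing can be said of that family. GR1, the glutathione reductase that regenerates reduced glutathione in the cytosol, had 572, 267 and 337 in ssi2 act1, 1923, 1709.9 and 2670.1 in ssi2 sid2, 2418, 3864 and 1051 in ssi2, against 407, 656 and 468 in wild type. All raised arrays lay above the highest other array, which was wild type replicate 2. The rise was of similar size in both raised genotypes, with 2.01 in ssi2 sid2 and 2.07 in ssi2, and ssi2 act1 had -0.41. Of 13 measured glutathione transferases, which use reduced glutathione to conjugate toxic compounds, 3 rose in ssi2, where 5.77% of all probe sets did. In ssi2 sid2 limma called 0, and 2 had an unadjusted p under 0.05, as did 20% of all probe sets. GSTU15 rose by 1.77 in ssi2 (adjusted p = 0.00137), GSTU27 by 1.56 (adjusted p = 0.00699) and GSTU28 by 0.88 (adjusted p = 0.0374). The list's median differences were 0.13 in ssi2 act1, 0.37 in ssi2 sid2 and -0.12 in ssi2.

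Carbohydrate and light-harvesting genes made up the rest of the members with a symbol. AMY1 encodes an alpha-amylase, which cuts starch. It had 52.7, 41.3 and 36.6 in ssi2 act1, 1447, 212 and 1318 in ssi2 sid2, 898, 2054 and 1320.5 in ssi2, against 26, 80.1 and 18.9 in wild type. All 6 raised arrays were above the other 6, with ssi2 sid2 replicate 2 the lowest of them, and the differences were 0.18, 3.87 and 4.71 in ssi2 act1, ssi2 sid2 and ssi2 (SE 0.635). ATSPS4F encodes a sucrose phosphate synthase, an enzyme of sucrose synthesis. Signals of this gene were 105, 46.6 and 29.6 in ssi2 act1, 942, 2228 and 1837 in ssi2 sid2, 529, 655 and 94.4 in ssi2, against 28.2, 64.2 and 41.4 in wild type. The ssi2 sid2 arrays were all above the ssi2 arrays, and ssi2 replicate 3 fell within the range of ssi2 act1. Its ssi2 sid2 minus ssi2 difference of 2.21 (SE 0.623) was the highest of all members, and without ssi2 replicate 3 it was 1.39, again the highest. LHCB4.3 encodes an isoform of a minor antenna protein of photosystem II and had 151, 304 and 156 in ssi2 act1, 8541, 1512 and 8487 in ssi2 sid2, 4456, 2709 and 330.4 in ssi2, against 252, 209 and 170.3 in wild type. All raised arrays lay above the others, though ssi2 replicate 3 only just, and in ssi2 sid2 replicate 2 was the low array. The differences from wild type were -0.10, 4.43 and 2.85 in ssi2 act1, ssi2 sid2 and ssi2 (SE 0.858), and the ssi2 difference was 3.96 without ssi2 replicate 3. With all arrays the ssi2 difference was not called in the fit (adjusted p = 0.0571). Of its paralogs, LHCB4.1 had -0.31, -0.44 and -0.53 in the same order, with no call, and LHCB4.2 had -1.10 (adjusted p = 0.103) and fell by 1.69 in ssi2 sid2 (adjusted p = 0.00757) and by 1.91 in ssi2 (adjusted p = 0.00189). Over the 27 leaf photosynthesis genes, most of them plastid-encoded, the median difference was -0.31 in ssi2 act1, -0.21 in ssi2 sid2 and -0.53 in ssi2. In ssi2 act1 1 of them was called lower than in wild type, PSAN at -1.13 (adjusted p = 0.0447), where 1.13% of all probe sets were. In ssi2 sid2 1 was called higher, LHCB4.3, and 1 lower, LHCB4.2, and in ssi2 1 was called lower, LHCB4.2.

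**Figure D2:**
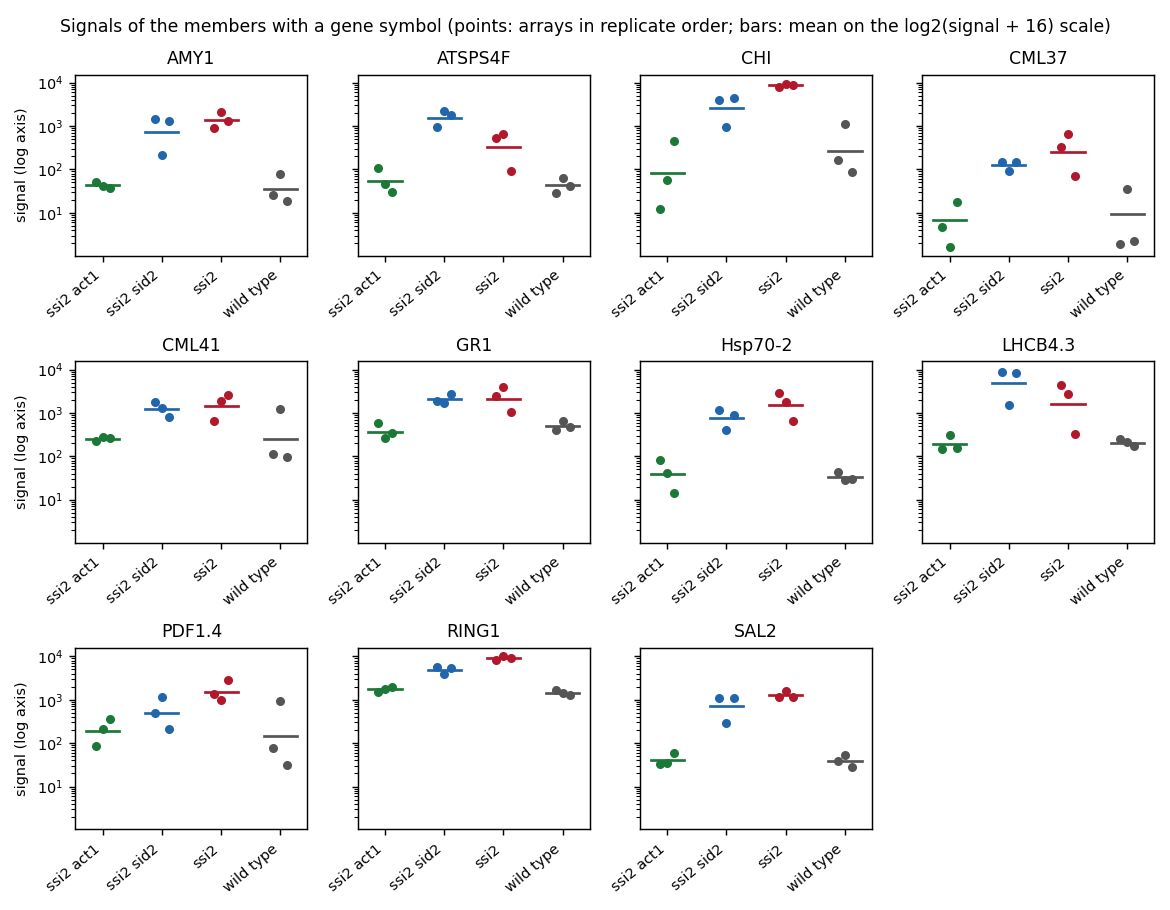
Signals (log axis) of the 11 members with a gene symbol, by genotype, with a point for each of the 3 arrays in replicate order and a bar at the mean taken on the log2(signal + 16) scale. In SAL2, AMY1 and Hsp70-2 all ssi2 sid2 and ssi2 points lie above all others, while in CML41 and PDF1.4 wild type replicate 2 lies among the raised points.

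The other 44 members carry only a locus name in the tables used, so no role is given for them. AT1G64500 had 61.9, 30.4 and 27.1 in ssi2 act1, 1169, 1042 and 1308 in ssi2 sid2, 1098, 959 and 142 in ssi2, against 23.6, 78 and 5.99 in wild type. AT1G43910 had 10.2, 9.67 and 45.6 in ssi2 act1, 2423, 389 and 1678 in ssi2 sid2, 647, 1265 and 221 in ssi2, against 45.5, 20.8 and 58 in wild type. In both, ssi2 sid2 was on average higher than ssi2, by 1.09 and 1.02, and ssi2 replicate 3 was the low ssi2 array. The signals of AT1G13340 were 59.4, 60.3 and 94.2 in ssi2 act1, 906, 628 and 529.8 in ssi2 sid2, 1792, 1438 and 755 in ssi2, against 41.5, 95.7 and 35.5 in wild type. Those of AT5G17760 were 85.1, 15.1 and 52.3 in ssi2 act1, 734, 318 and 731 in ssi2 sid2, 977, 1505 and 890.1 in ssi2, against 90.5, 25.7 and 46.3 in wild type. Neither gene had a raised array that overlapped the others, and the rises in ssi2 sid2 were 3.31 and 3.13, beside 4.19 and 4.09 in ssi2. AT3G01830 had 0.65, 3.8 and 18.4 in ssi2 act1, 307, 111 and 252 in ssi2 sid2, 496, 662 and 266 in ssi2, against 2.5, 67.5 and 1.7 in wild type. Its raised arrays all lay above the others, of which wild type replicate 2 was by far the highest. AT5G52390 had 3.59, 3.86 and 2.16 in ssi2 act1, 1161, 84.9 and 924 in ssi2 sid2, 611, 608 and 128 in ssi2, against 21.7, 85.2 and 26.3 in wild type, with every ssi2 act1 array below every wild type array and ssi2 sid2 replicate 2 level with wild type replicate 2. In AT4G37290 the signals were 9.26, 33.7 and 20.5 in ssi2 act1, 265, 229 and 131 in ssi2 sid2, 1247, 1028 and 38.8 in ssi2, against 1.85, 56 and 6.7 in wild type, and ssi2 replicate 3 lay below wild type replicate 2. Dim arrays are common among such genes, since 26 members had at least 1 signal under 16, 18 of them in wild type, and 2 had all 3 wild type signals there. With all arrays the largest rise in ssi2 belonged to AT4G00700, with 13.8, 40.9 and 17 in ssi2 act1, 173, 96.2 and 221 in ssi2 sid2, 866, 1254 and 1693 in ssi2, against 5.01, 25.9 and 16.1 in wild type. Its difference from wild type was 2.49 in ssi2 sid2 and 5.35 in ssi2. Without wild type replicate 2 its ssi2 difference was 5.58, behind AT4G39670 at 6.27, CHI at 6.0, AT1G68620 at 5.85 and AT4G16260 at 5.61. Without ssi2 replicate 3 it was 5.12, behind Hsp70-2 at 5.51 and AT4G37290 at 5.22. The 37 members that have no symbol and are not among the 12 with the largest value for the smaller of both rises had a median difference from wild type of 0.030 in ssi2 act1, 2.30 in ssi2 sid2 and 3.32 in ssi2.

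The part of the ssi2 rise that was present in ssi2 sid2 differed in size between members. Expressed as the log2 difference of ssi2 sid2 from wild type over that of ssi2, the remaining share had a median of 74.1% and ran from 42.4% in AT1G55790 to 187% in ATSPS4F. It was under 50% in 6 members, AT1G55790, AT3G29970, AT1G68620, AT3G13950, AT4G00700 and AT4G39670. In 38 members it was 50 to 100%, and in 11 it was 100% or more. Without ssi2 replicate 3 the median share was 67.1%, with 11 members under 50%, 37 at 50 to 100% and 7 at 100% or more. These 7 were 6 of the 11, ATSPS4F, AT1G72940, LHCB4.3, AT1G43910, AT1G64500 and AT1G33110, and CML41. The share in ATSPS4F was then 141%. No share was recomputed without ssi2 sid2 replicate 2. Relative to the mean of the other ssi2 sid2 arrays, that array had a median of -0.57 in the members. It was lower by over 1 in 22 members and higher by over 1 in 5. Leaving it out would therefore raise the share in some members and lower it in others. Relative to ssi2, the ssi2 sid2 mean was lower by over 1 in 22 members, within 1 in 28 and higher by over 1 in 5. These 5 were ATSPS4F, LHCB4.3, AT1G65870, AT1G64500 and AT1G43910, and ssi2 replicate 3 was the low ssi2 array in each. Without that array 34 members were lower by over 1, 20 were within 1 and 1, ATSPS4F, was higher by over 1. LHCB4.3 then had 0.46, AT1G43910 0.36, AT1G64500 0.18 and AT1G65870 -0.13. In ssi2 sid2 minus ssi2, limma called 5 members lower (1.71% of all probe sets) and 0 higher (1.42% of all), and 18 members of either sign had an unadjusted p under 0.05, as did 16.2% of all probe sets. The lower ones were AT4G00700 at -2.86 (SE 0.387), AT3G29970 at -2.53, AT4G05030 at -2.20, AT1G55790 at -2.04 and AT1G78410 at -1.88. This count was 2 without ssi2 replicate 1 or 2 or ssi2 sid2 replicate 2 or 3, 9 without wild type replicate 2 and 12 without both that array and ssi2 replicate 3. Arrays of ssi2 sid2 all lay below those of ssi2 in 17 members, where 13.5% of all probe sets did so, and all above them in 1, ATSPS4F, where 10.4% did. A smaller remaining share in one gene than in another was not tested.

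**Figure D3:**
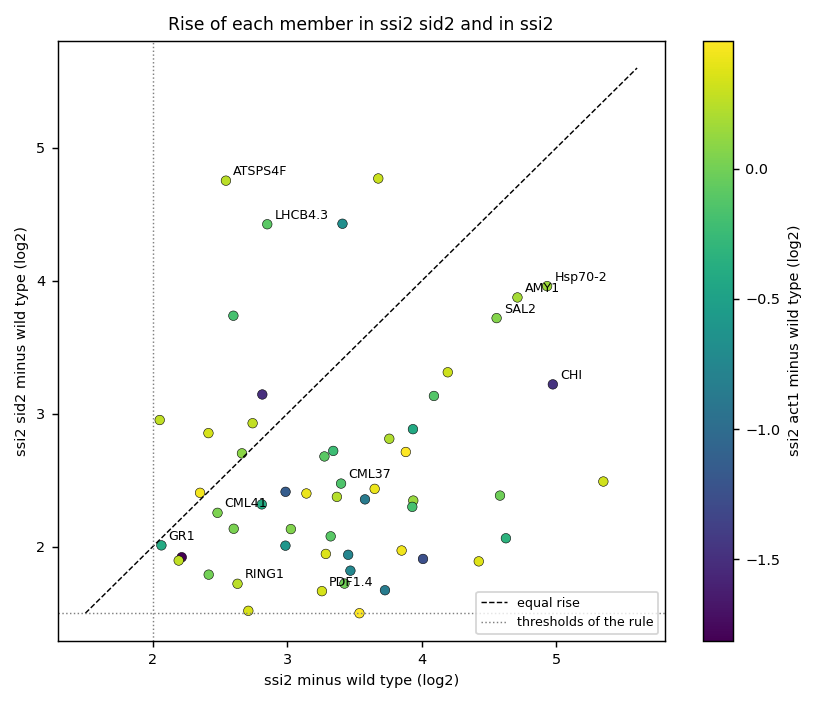
Difference from wild type in ssi2 sid2 (vertical axis, log2) against that in ssi2 (horizontal axis, log2) for the 55 members, coloured by the difference in ssi2 act1. The 11 members above the dashed line of equal rise include ATSPS4F and LHCB4.3, and dotted lines mark the thresholds of the rule.

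In ssi2 act1, 44 members lay within 0.5 of wild type, 11 lay more than 0.5 below it and 5 more than 1 below it. The 5 were AT3G28270 at -1.81, AT5G52390 at -1.5, CHI at -1.48, AT4G39670 at -1.25 and AT1G55210 at -1.14. Without wild type replicate 2, AT4G39670 lay 1.01 above wild type, AT3G28270 had -0.72, CHI had -0.45 and AT5G52390 had -1.06. AT1G55210 then had -1.48, and AT1G52770 passed 1 below wild type with -1.08. Every ssi2 act1 array was below every wild type array in 3 members, AT5G52390, AT1G55210 and AT3G28270, where 8.09% of all probe sets were so, and above them in 0 (8.43% of all).

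How close ssi2 act1 came to wild type depended on wild type replicate 2. A high value on this array raises the wild type mean and so helps a gene to pass the ssi2 act1 limit, which means that the counts for this array follow in part from the rule and are given as descriptions. Wild type replicate 2 was the highest wild type array in 37 of the 55 members (67.3%), against 33.1% of all probe sets, and its median deviation was 0.49 in the members and -0.079 over all probe sets. In AT4G39670 the signals were 39.2, 13.4 and 24.1 in ssi2 act1, 679, 153 and 378 in ssi2 sid2, 1831, 3252 and 589 in ssi2, against 3.53, 2178 and 4.4 in wild type. In AT4G16260 they were 32.5, 6.19 and 92.4 in ssi2 act1, 447, 579.7 and 100.5 in ssi2 sid2, 1343, 1841 and 280.2 in ssi2, against 3.02, 1625 and 2.23 in wild type. In each, a single wild type array lay at the ssi2 level while the others were under 5. Wild type replicate 2 was above the lowest ssi2 array in 8 members, these 2 and AT5G11650, CML41, AT4G37290, AT4G29030, AT3G28270 and AT1G21550. Without it, 24 of the 55 members no longer met the rule, and 23 of these then had an ssi2 act1 difference above 0.5. Of the members described above, AT1G64500 then had 0.87, AT4G37290 had 0.83, AT1G13340 had 0.66, AMY1 had 0.63 and AT4G00700 had 0.56. The median ssi2 act1 difference became 0.24, and its highest value was 1.62 in PDF1.4, followed by 1.47 in AT1G21550 and 1.39 in AT4G16260. SAL2, LHCB4.3, RING1 and CHI were among 18 members that met the rule whichever single array was left out. The others of the 18 were AT1G24140, AT1G43910, AT1G52770, AT1G55210, AT1G58420, AT1G72240, AT2G20142, AT3G01830, AT3G02840, AT3G60420, AT4G03450, AT4G05030, AT5G17760 and AT5G52390.

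**Figure D4:**
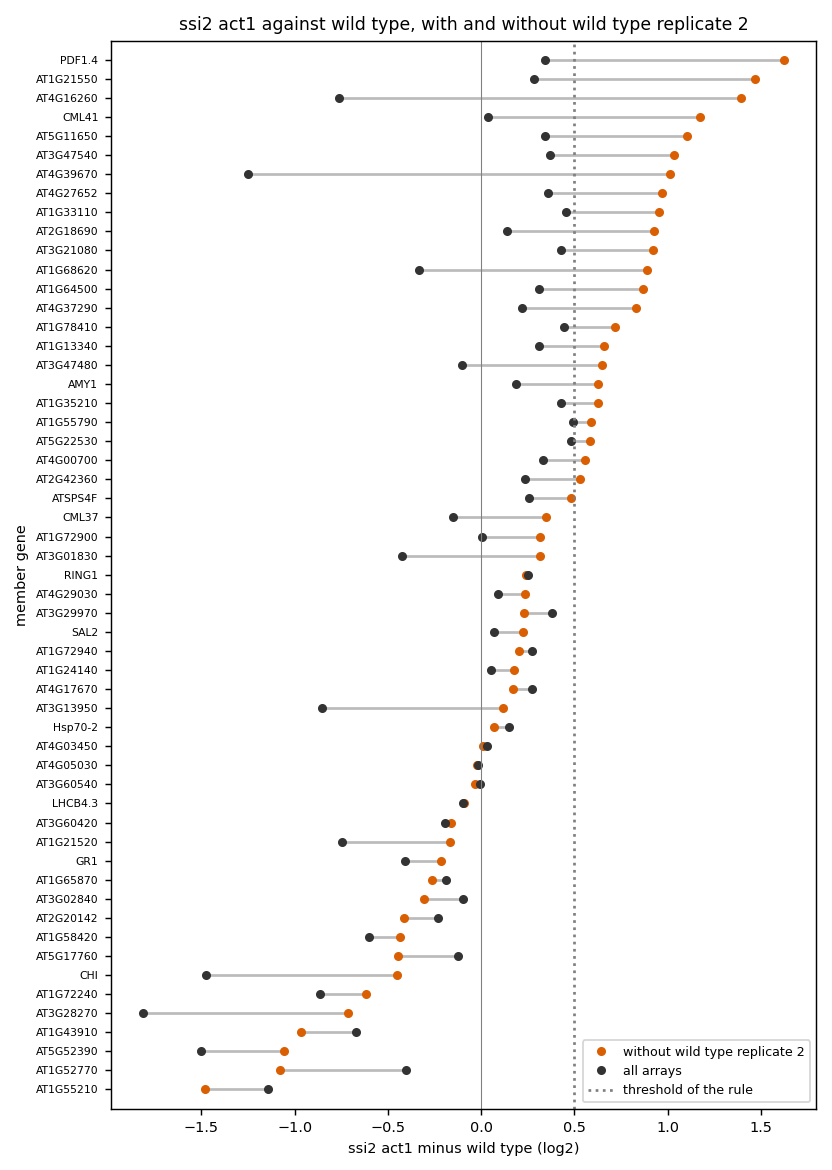
Difference of ssi2 act1 from wild type (horizontal axis, log2) for each of the 55 members with all arrays (dark points) and without wild type replicate 2 (orange points). Grey lines join the 2 values of a gene, and 23 orange points lie right of the dotted line at the rule's limit of 0.5.

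Other arrays also moved with the members. In ssi2, replicate 3 was the lowest array in 42 members, against 38.7% of all probe sets, with a median of -1.02 relative to the mean of the other ssi2 arrays and -5.02 in AT4G29030. The signals of AT4G29030 were 39.7, 29.3 and 45.5 in ssi2 act1, 675, 473 and 89.3 in ssi2 sid2, 1259.7, 802 and 15.5 in ssi2, against 14.2, 45.9 and 52.9 in wild type. AT1G65870 had 27.4, 40.7 and 40.8 in ssi2 act1, 945, 438 and 1108 in ssi2 sid2, 1331, 533 and 46.2 in ssi2, against 58.9, 37.1 and 35.9 in wild type, with ssi2 replicate 3 again at the wild type level. Without that array the ssi2 difference from wild type was 4.34 in AT4G29030 (2.66 with it) and 3.86 in AT1G65870 (2.60 with it). Neither difference was called in the fit with all arrays (adjusted p = 0.175 and 0.0717). In ssi2 sid2, replicate 2 was the lowest array in 34 members (35.0% of all probe sets) and the highest in 11 (41.4% of all). It was furthest below the other ssi2 sid2 arrays in AT5G52390, AT1G72240, AT1G55210, AMY1 and LHCB4.3, and furthest above them in PDF1.4, AT1G68620, AT4G16260, AT1G72900 and AT1G72940. Without both wild type replicate 2 and ssi2 replicate 3, the median difference from wild type was 0.24 in ssi2 act1, 2.83 in ssi2 sid2 and 4.01 in ssi2.

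The thresholds passed through a continuous range of values. For the ssi2 difference, AT1G72940 at 2.05 and GR1 at 2.07 were just inside, and AT2G41250 at 1.99 and AT3G50910 at 1.97 just outside. For ssi2 sid2, AT1G55790 at 1.5 and AT4G27652 at 1.52 were inside, and AT1G22930 at 1.46 and the invertase gene cwINV6 at 1.44 outside. For ssi2 act1, AT1G55790 at 0.49 and AT5G22530 at 0.48 were inside, and AT3G13610 at 0.52 and AT5G17350 at 0.58 outside. For the ssi2 mean, CML37 at 8.07 and AT4G29030 at 8.32 were inside, and the ubiquitin ligase gene PUB23 at 7.94 and AT3G57950 at 7.92 outside. AT1G76960 had 23.3, 106 and 186 in ssi2 act1, 1229, 402 and 1139 in ssi2 sid2, 5659.7, 5006 and 2721 in ssi2, against 63.5, 146 and 5.04 in wild type. Both raised genotypes were above the others on every array, and its differences from wild type were 0.61 in ssi2 act1, 3.70 in ssi2 sid2 and 6.04 in ssi2 (SE 0.757). Among probe sets with several gene names 2 met the thresholds, as did 87 with none, and these are not named.

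Of the 55 members 4 (7.27%) had another member among the 4 nearest measured genes on either side: AT1G21520 with AT1G21550, and AT1G72900 with AT1G72940. In the order of measured genes, CHI lay 10 places from SSI2 and AT1G33110 lay 48 places from ACT1, and no other member lay within 50 places of SSI2, ACT1 or SID2. A difference between the lines in a segment linked to a mutation was not tested. Only AT3G60420 among the members had another single-gene probe set. It gave 2.75, 2.88 and 9.55 in ssi2 act1, 6.33, 5.19 and 5.94 in ssi2 sid2, 14.9, 15.2 and 11 in ssi2, against 21.1, 9.68 and 5.85 in wild type, with 11 of 12 under 16, too dim to show whether the transcript changed. The member probe set gave 182, 422 and 397 in ssi2 act1, 3464, 733 and 2436 in ssi2 sid2, 4201, 7746 and 5765 in ssi2, against 405, 376 and 309 in wild type.

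Under the same level and ssi2 threshold, 219 eligible probe sets were raised in ssi2. Of these, 25 also had differences of at least 1.5 in both ssi2 act1 and ssi2 sid2, and 22 had at most 0.5 in both. The median wild type level was 6.09 in the 55 members, 6.37 in the probe sets raised in all 3 mutant genotypes and 6.81 in those near wild type in both double mutants, on the log2(signal + 16) scale. These groups are defined by the same means, so their differences in pattern are not results.

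The remaining gene lists were short, with 8 of all 22 holding under 3 measured genes, and no list was tested as a set. Their counts stand beside the 5.77% of all probe sets called higher in ssi2, the 4.34% called lower there and the 3.62% called higher in ssi2 sid2, each against wild type. Of the 6 measured WRKY transcription factors 3 rose in ssi2 and 2 in ssi2 sid2, with median differences of 0.38 in ssi2 act1, 0.72 in ssi2 sid2 and 1.16 in ssi2. WRKY53, which met the thresholds and was left out by name, had 0.01, 2.11 and 3.38 in that order. WRKY6 rose by 2.80 in ssi2 sid2 (adjusted p = 0.00557) and 4.13 in ssi2 (adjusted p = 0.000249), and had 1.33 in ssi2 act1 (adjusted p = 0.222). WRKY47 rose in ssi2 by 1.61 (adjusted p = 0.00475). The list of ubiquitin ligases held only genes with PUB or ATL names, and so not the member RING1. Of its 13 measured genes 2 rose and 1 fell in ssi2, and 2 rose in ssi2 sid2, with medians of -0.12 in ssi2 act1, 0.21 in ssi2 sid2 and 0.11 in ssi2. PUB23, a ligase that dampens immune signalling, rose by 1.5 in ssi2 sid2 (adjusted p = 0.0426) and 2.54 in ssi2 (adjusted p = 0.00175), and had -0.70 in ssi2 act1 (adjusted p = 0.529). PUB24 rose in ssi2 by 2.17 and PUB25 fell by 1.96, while PUB22 rose in ssi2 sid2 by 1.85 (adjusted p = 0.0353) and had 0.10 in ssi2. Of 27 listed genes of salicylic acid synthesis and signalling 2 were measured, SAG101 and GRX480. In ssi2 act1 they had 0.74 and 0.35, without a call (adjusted p = 0.314 and 0.842). In ssi2 sid2 they had 0.97 and 0.74, without a call (adjusted p = 0.0841 and 0.364). Both rose in ssi2, by 2.18 and 2.76 (adjusted p = 0.000895 and 0.0014), and neither was a member. In the lectin list 1 of 5 measured genes rose in ssi2, JAL34 with 2.32 (adjusted p = 0.0048). JAL34 had 1.01 in ssi2 act1 and 1.08 in ssi2 sid2, without a call (adjusted p = 0.334 and 0.173). In the senescence list SAG29 had 0.22 in ssi2 act1 and -0.11 in ssi2 sid2 (adjusted p = 0.944 and 0.956) and rose in ssi2 by 2.34 (adjusted p = 0.0167). Of 22 lists 16 had a measured gene and 4 held a member that was matched by locus or name. Members named only by locus could be missed by matching words. Lists without a match, such as ABC transporters and MATE transporters, do not show that the arrays lacked such genes. In the plastid glycerolipid list the only measured gene was PRK, a Calvin cycle kinase gene that does not belong there.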

How the data were processed

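The authors deposited signal intensity values on a linear scale for 22810 probe sets on 12 arrays, 1 per sample. Affymetrix Expression Console 1.0 is named in the submitters' processing notes, while how signals were summarised and scaled is not stated there. No further scaling was applied, and 64 control probe sets were left out. Names came from GEO's platform annotation and a RefSeq table (TAIR10.1), used for names and gene order only: 13513 had 1 gene, of which 13436 matched the table, 503 several and 8794 none.

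From these values log2(signal + 16) was computed. A model with 1 mean per genotype was fitted to the 12 arrays with limma 3.58.1 (R 4.3.3), with eBayes and Benjamini-Hochberg adjustment over 22746 probe sets. The fit was tested on simulated data. Precision is limited by the number of arrays. Members, lists and named genes were chosen with earlier results of these data known. Described in full were SAL2, AT1G76960, all members with a symbol and the 12 with the largest value for the smaller of their rises in ssi2 sid2 and ssi2. From each list up to 4 genes called against wild type with the largest differences were named, and at each threshold the 2 probe sets just inside and just outside. AT4G00700, AT4G16260, AT4G39670, AT4G29030, AT1G65870, LHCB4.1, the SAL loci without a call against wild type and members named for a count were added after their values were seen. So were the differences of SAL loci between mutant genotypes. Promoter motifs were planned and are not analysed here, since no sequences were used. Values without ssi2 replicate 3 and without wild type replicate 2 for single members were added after seeing the data. Alternatives included array weights, median centring, quantile normalization, dropping probe sets under percentile 40, pseudocounts of 1 and 64, the replicate number as a block, only the 6 arrays compared, a trended and robust prior and leaving out arrays.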

Additional observations from a re-analysis of the deposited data

How the results depend on the processing

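With array weights 55 members were called higher in ssi2 sid2 than in wild type and 28 lower in ssi2 sid2 than in ssi2, and 47 listed genes were called in ssi2 against wild type, where the fit without weights gave 36, 5 and 20. The members lower in ssi2 sid2 than in ssi2 numbered 3 after median centring, 2 at a pseudocount of 1, and leaving out ssi2 replicate 3 together with wild type replicate 2 gave 12. The rule gave 32 genes with each fold threshold stricter by 0.25 and 95 with each looser by 0.25. With medians of the 3 arrays in place of means it gave 66, of which 36 were among the 55, and 71 without that pair of arrays, of which 32 were. Leaving out 1 array gave 45 to 79 genes by the rule. The members called ranged over such removals from 36 to 51 for ssi2 against wild type, 17 to 46 for ssi2 sid2 against wild type, 39 to 51 for ssi2 act1 against ssi2, 2 to 9 for ssi2 sid2 against ssi2 and 17 to 46 for ssi2 act1 against ssi2 sid2. They stayed at 0 to 0 for ssi2 act1 against wild type, and the listed genes called ranged from 16 to 27. With the replicate block the member counts were 45, 32, 47, 4, 39 and 0 in the order of the comparisons just named, and 20 listed genes were called. Deviations of same-numbered arrays correlated from -0.383 to 0.335, over 0.1 in 6 of 18 pairs. Among arrays of other genotypes, 3 of 12 arrays correlated best with an array of their own number. With 3 arrays per genotype these values cannot show whether same-numbered arrays were grown or processed together. The differences from wild type of single described genes moved by more than the spread between replicates in 14 of 1254 recomputations, and no called difference changed sign. The cause of these shifts was not tested. Signals under 16 limit what can be said of dim genes.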

Other observations

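The 7 genes that met the thresholds but were left out by name fell on both sides of the ssi2 level in ssi2 sid2. HYH, a transcription factor of light signalling, had differences from wild type of -0.53, 4.20 and 3.19 in ssi2 act1, ssi2 sid2 and ssi2. AT5G42760 had 0.04, 6.15 and 3.23, AT3G44450 had -0.10, 4.62 and 2.67 and AT1G06000 had -0.31, 4.53 and 3.28 in the same order, so that the means of these 4 genes were higher in ssi2 sid2 than in ssi2. Much of that gap came with ssi2 replicate 3, the low ssi2 array in all 4. The ssi2 sid2 minus ssi2 difference was 2.92 in AT5G42760, 1.95 in AT3G44450, 1.25 in AT1G06000 and 1.01 in HYH with all arrays, and 1.42, 0.67, 0.35 and 0.24 in the same order without that array. AT5G39670 had -0.18, 3.45 and 3.93 and UGT87A2, a UDP-glycosyltransferase gene, had -0.19, 2.14 and 3.54, both lower in ssi2 sid2 than in ssi2, as was WRKY53. These values are descriptions, since the same thresholds chose the genes.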
